A study of Rattus norvegicus with 69 samples.

Results

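The genes described here are 32 ER chaperones, folding enzymes and unfolded protein response genes measured in the liver of male Wistar rats. They were taken from the gene count table by their symbols, 32 of the 38513 genes listed, and every one of them had enough counts to be tested among the 16676 genes that did. The study asked how Roux-en-Y gastric bypass (RYGB), an operation that reroutes food past the stomach and upper gut, compares in early fatty liver with the gut hormone analogue liraglutide, a GLP-1 receptor agonist, given together with the gut peptide PYY3-36. RNA of 69 livers was sequenced, 1 library per rat. Rats were first made obese on a high-fat diet and, during treatment, could choose between high-fat and low-fat food. There were 14 RYGB rats, 8 labelled BWM, 6 labelled Lean and 12 with a sham operation. A further 11 received liraglutide+PYY3-36, 5 PYY3-36 alone, 5 liraglutide alone and 8 saline. The labels BWM and Lean are not explained in the labels or in the paper, so diet and treatment of those rats are not known here. Some rats of the liraglutide+PYY3-36 and saline arms were fed for longer, and the labels do not say which. The numbers of such rats equal those of the batch A libraries in these arms, though no source ties the 2, so batch and feeding time cannot be told apart there.

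The endoplasmic reticulum (ER) is where secreted and membrane proteins enter the secretory pathway and fold, and hepatocytes secrete large amounts of plasma protein. When unfolded proteins build up, the sensors Ern1 (IRE1), Eif2ak3 (PERK) and Atf6 start the unfolded protein response. Ern1 splices the Xbp1 mRNA, Atf6 is cut to release a transcription factor, and both factors raise the transcription of chaperones and of genes for ER-associated degradation. Counts per gene do not tell the spliced from the unspliced Xbp1 mRNA, nor the cut from the whole Atf6 protein.

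Libraries held 9110860 to 27559144 counts, with a median of 21027325. The labels name batch A (41 libraries) and batch B (28 libraries) without saying what a batch was. RYGB had 11 libraries in batch A and 3 in batch B, sham 7 and 5, liraglutide+PYY3-36 6 and 5, and saline 3 and 5. BWM and Lean were in batch A alone, and PYY3-36 and liraglutide in batch B alone. In batch B, 6 libraries lay apart on the first principal component of all genes, at 112 to 158.9 against 11.1 to 80.0 for the other 22. These were sham replicate 12, PYY3-36 replicate 5, liraglutide replicate 4 and liraglutide+PYY3-36 replicates 8, 9 and 11, and results that rest on them are given with and without them. The 10 hepatocyte markers summed to between 72370 and 458800 CPM (counts scaled to the size of the library) in all 69 libraries, so liver was found where the labels say liver. In these bulk samples fewer cells of a type and less RNA per cell cannot be told apart.

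Transcription of these genes is known to run through short elements near their start sites, so the sequence around each start was read from RefSeq (rat build GRCr8), 250 bases before to 50 bases after it. Of the 32 genes, 25 had an entry. An ER stress element, ERSE, is the letters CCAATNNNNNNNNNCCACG, the ERSE-II is ATTGGNCCACG and the UPRE is TGACGTGG. All were searched on both strands, and a CCACG block is part of both kinds of ERSE. An ERSE was present in 8 of the 25 promoters (32%), against 22 of all 33465 promoters of the same length (0.0657%). An ERSE-II was present in 3 of them (12%), against 17 of all (0.0508%), and the UPRE in 1 (4.0%), against 199 of all (0.595%). The CCACG block alone was found in 22 of the 25 (88.0%), against 31.6% of all promoters. The stretches below are shown because they belong to the genes whose values are followed in the next paragraphs, with the element in capitals and 10 bases on each side. Where the element lies on the other strand it reads as CGTGG followed by ATTGG or CCAAT.
Hspa5, ERSE, chr3:38452963-38453001, plus strand: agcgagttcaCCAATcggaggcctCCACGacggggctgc
Hsp90b1, ERSE, chr7:23012441-23012479, minus strand: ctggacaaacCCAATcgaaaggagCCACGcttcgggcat
Dnajc3, ERSE, chr15:102432524-102432562, plus strand: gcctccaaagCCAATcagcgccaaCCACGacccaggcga
Calr, ERSE on the other strand, chr19:40213125-40213163, plus strand: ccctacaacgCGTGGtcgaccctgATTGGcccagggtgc
Creld2, ERSE on the other strand, chr7:121789229-121789267, plus strand: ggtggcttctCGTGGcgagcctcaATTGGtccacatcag
Xbp1, ERSE, chr14:84604548-84604586, plus strand: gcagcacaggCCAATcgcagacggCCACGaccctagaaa
Dnajb11, ERSE-II, chr11:91672790-91672820, minus strand: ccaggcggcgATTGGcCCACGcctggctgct
Herpud1, ERSE-II, chr19:10614811-10614841, minus strand: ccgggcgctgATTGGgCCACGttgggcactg
Hyou1, ERSE-II on the other strand, chr8:53602684-53602714, plus strand: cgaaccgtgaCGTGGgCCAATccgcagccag

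Hyou1 held a second ERSE-II nearer its start, and its UPRE overlapped the first one in 5 letters. Hsp90b1 held a second ERSE on the other strand. Derl3, on the other strand, and Canx each held 1 ERSE, not shown here. The whole window of Hspa5 is shown because this gene is the point of comparison for all others below, and that of Sdf2l1 because it was the only gene of the 32 that the edgeR model of all libraries called. The Sdf2l1 window held no full element, and its single CCACG block, on the other strand, is in capitals.
Hspa5, chr3:38452766-38453065, plus strand: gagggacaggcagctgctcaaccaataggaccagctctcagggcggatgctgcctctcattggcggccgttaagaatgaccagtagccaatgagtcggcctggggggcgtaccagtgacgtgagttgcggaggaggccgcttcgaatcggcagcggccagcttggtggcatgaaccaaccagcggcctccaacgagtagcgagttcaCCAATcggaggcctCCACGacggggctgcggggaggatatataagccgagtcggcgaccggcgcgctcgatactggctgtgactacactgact
Sdf2l1, chr11:97376628-97376927, plus strand: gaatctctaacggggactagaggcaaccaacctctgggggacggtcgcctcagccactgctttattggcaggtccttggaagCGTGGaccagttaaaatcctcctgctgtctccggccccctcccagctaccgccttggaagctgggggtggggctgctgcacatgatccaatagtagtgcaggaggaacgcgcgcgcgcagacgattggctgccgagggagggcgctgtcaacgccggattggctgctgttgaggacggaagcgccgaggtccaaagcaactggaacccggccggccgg
A match is a description of letters, and a window without one shows only that these letters are not in it.

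The 32 genes covered a wide range of levels. Per kilobase of exon, mean levels over the 69 libraries were highest for the disulfide isomerase P4hb (349 CPM per kb), the lectin chaperone Calr (348) and the prolyl isomerase Ppib (281). The disulfide isomerase Pdia3 (267), the HSP70 chaperone Hspa5 (230) and the HSP90 chaperone Hsp90b1 (200) came next. The sensors Atf6 (7.07 CPM per kb), Ern1 (3.67) and Eif2ak3 (3.24) were low, and the HSP70 relative Hspa13 (2.57) and the degradation factor Derl3 (0.305) were lowest. Hspa5 had at least 2501 counts in every library, while Hspa13 had as few as 3. Canx (calnexin), the membrane-bound lectin chaperone, overlaps Maml1 on the same strand, so that part of its reads may have been divided between them.

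RYGB was first compared with sham, the control for the operation. None of the 32 genes was called in edgeR's quasi-likelihood test (adjusted p under 0.05 over all 16676 genes, batch in the model), while 3.12% of all tested genes were. At an unadjusted p under 0.05, 10 of the 32 passed, all lower in RYGB, against 12.7% of all genes. The log2 fold change was negative for 27 of the 32, with a median of −0.15, against a median near 0 (−0.005) for all genes. The other tools called more: DESeq2 with batch called 3, all lower, and limma-voom with quality weights called 9, all lower, while limma-voom called 9.5% of all genes and DESeq2 called 3.28%. Leaving out single libraries gave 0 to 5 of the 32 in edgeR. The count was 5 without RYGB replicate 9, 4 without RYGB replicate 1 and 2 without sham replicate 7. It was 1 without RYGB replicate 8 or sham replicate 1, 5, 8 or 12. The share of all genes called was not computed for these fits, so whether these counts are particular to the 32 is not known. Without the 6 libraries that lay apart, 3 were called (5.51% of all genes), all lower in RYGB, namely Hspa5 (−0.50 ± 0.15, adjusted p = 0.0316), Dnajb11 (−0.36 ± 0.11, adjusted p = 0.0341) and Derl2 (−0.32 ± 0.10, adjusted p = 0.0499).

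Hspa5 (BiP), the main HSP70 chaperone of the ER lumen and the partner that holds the sensors inactive, lies on chromosome 3 at 13838304 to 13842763 (Rnor_6.0). Its level was 187.4 CPM at the lowest, 504.6 at the median and 918.3 at the highest in RYGB livers, against 444.3, 652.4 and 923.3 CPM in sham livers. The 2 ranges overlapped. In batch A, 7 of 11 RYGB libraries lay below the lowest of the 7 sham libraries, and 1 lay above the highest. The log2 fold change was −0.46 ± 0.14 (SE, edgeR adjusted p = 0.0685), with a 95% interval of −0.74 to −0.17. Of the other HSP70 and HSP90 chaperones, Hyou1 passed the unadjusted threshold (−0.33 ± 0.15), Hspa13 had 0.08 ± 0.27, and Hsp90b1 (GRP94) had −0.14 ± 0.19. Hsp90b1 had 337.4, 551.9 and 895.4 CPM in RYGB livers, against 418.3, 562.1 and 1525 CPM in sham livers, and the ranges overlapped.

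Co-chaperones that hand clients to Hspa5 were next. Dnajb11, a J-domain protein of the ER lumen, had 34.5 CPM at the lowest, 53.3 at the median and 91.0 at the highest in RYGB livers, against 57.7, 69.6 and 124.3 CPM in sham livers. In batch A, 8 of 11 RYGB libraries lay below all sham libraries and 2 lay above all of them. Its log2 fold change was −0.42 ± 0.13 (SE), and its edgeR adjusted p of 0.0505 was the lowest of the 32.

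Sdf2l1, a subunit of the ER chaperone complex that works with Dnajb11, had 5.79, 12.2 and 34.5 CPM in RYGB livers (lowest, median, highest), against 15.3, 19.95 and 88.0 CPM in sham livers. Most RYGB libraries were low: in batch A, 8 of 11 lay below the lowest sham library, and 1 lay above the highest. The log2 fold change was −0.68 ± 0.22 (SE, edgeR adjusted p = 0.0869). Dnajc3 (p58IPK), which also binds Hspa5 and inhibits Eif2ak3, differed by −0.25 ± 0.11 (adjusted p = 0.247). Dnajb9 (ERdj4), a J-domain protein that keeps Ern1 inactive, had a log2 fold change of 0.17 ± 0.42 and was among the 5 with a positive value.

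Folding enzymes pointed the same way as Hspa5, short of the threshold. Pdia4, a disulfide isomerase, had 39.3, 135.2 and 257.6 CPM in RYGB livers, against 88.4, 173.2 and 218.7 CPM in sham livers. Its log2 fold change was −0.50 ± 0.16 (edgeR adjusted p = 0.0737). All 5 disulfide isomerases had a negative log2 fold change, between −0.50 and −0.13, and Pdia3 also passed the unadjusted threshold.

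Calr, which binds glycoproteins and calcium, had 252.8, 489.3 and 959.6 CPM in RYGB livers, against 480.4, 671.4 and 1379 CPM in sham livers (log2 fold change −0.49 ± 0.18, edgeR adjusted p = 0.144). In batch A, 8 of 11 RYGB libraries lay below the lowest sham library, and 1 lay above the highest. Canx and Ppib had −0.19 ± 0.34 and −0.12 ± 0.13. Creld2, a secreted protein made under ER stress, had 11.8, 22.01 and 40.3 CPM in RYGB livers, against 18.4, 28.7 and 75.6 CPM in sham livers. Its log2 fold change was −0.49 ± 0.16 (adjusted p = 0.0904), and that of Manf, another secreted stress protein, was −0.28 ± 0.14 (adjusted p = 0.404).

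The 3 sensors and Xbp1 had smaller fold changes. Xbp1 had 133.2, 248.0 and 619.9 CPM in RYGB livers, against 76.0, 244.5 and 519.9 CPM in sham livers, and the ranges largely overlapped. Log2 fold changes were −0.14 ± 0.22 for Xbp1, −0.01 ± 0.12 for Atf6, 0.10 ± 0.18 for Ern1 and −0.09 ± 0.19 for Eif2ak3, with adjusted p between 0.894 and 0.983 in edgeR. The 95% interval of Atf6, −0.26 to 0.23, was the narrowest of these. Atf6 had 21.7, 57.5 and 102.3 CPM in RYGB livers, against 27.7, 56.9 and 79.8 CPM in sham livers. Ern1 had 21.2, 29.8 and 39.3 CPM in RYGB livers, against 11.4, 25.8 and 32.3 CPM in sham livers. Eif2ak3 had 8.67, 13.7 and 26.9 CPM in RYGB livers, against 8.22, 14.1 and 37.9 CPM in sham livers. In all 3 sensors the medians lay inside the range of the other group, though the Ern1 median of RYGB was near the top of the sham range. In batch A, 5 of 11 RYGB libraries lay above the highest sham library for Ern1, and 0 lay below the lowest.

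Of the 7 genes of ER-associated degradation, which returns misfolded proteins to the cytosol for destruction, only Derl2 passed the unadjusted threshold. Derl2, a part of the export channel, had 52.4, 68.8 and 95.4 CPM in RYGB livers, against 76.9, 89.8 and 198.7 CPM in sham livers (log2 fold change −0.37 ± 0.16, edgeR adjusted p = 0.302). Herpud1 (−0.02 ± 0.24), the ubiquitin ligase Syvn1 (−0.01 ± 0.09) and its partner Sel1l (−0.06 ± 0.07) had values near 0, and Derl1 had −0.05 ± 0.17. Herpud1, which helps assemble the ligase complex, had 96.1, 248.5 and 310.5 CPM in RYGB livers, against 56.1, 246.5 and 387.4 CPM in sham livers. Derl3, a relative of Derl2, had 0.47, 1.42 and 6.07 CPM in RYGB livers, against 0.92, 1.79 and 7.38 CPM in sham livers (−0.43 ± 0.38). Edem1, which picks glycoproteins for degradation, had the highest value of all 32, 0.44 ± 0.40. The 3 translocon genes Sec61a1, Sec61b and Ssr1, which bring new proteins into the ER, had log2 fold changes between −0.20 and 0.11. Some genes had RYGB libraries above the sham range. For Sec61a1, 7 of 11 RYGB libraries of batch A lay above the highest sham library and 2 below the lowest. For Edem1 and Hspa13, 5 of 11 lay above and 0 below.

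**Figure D1:**
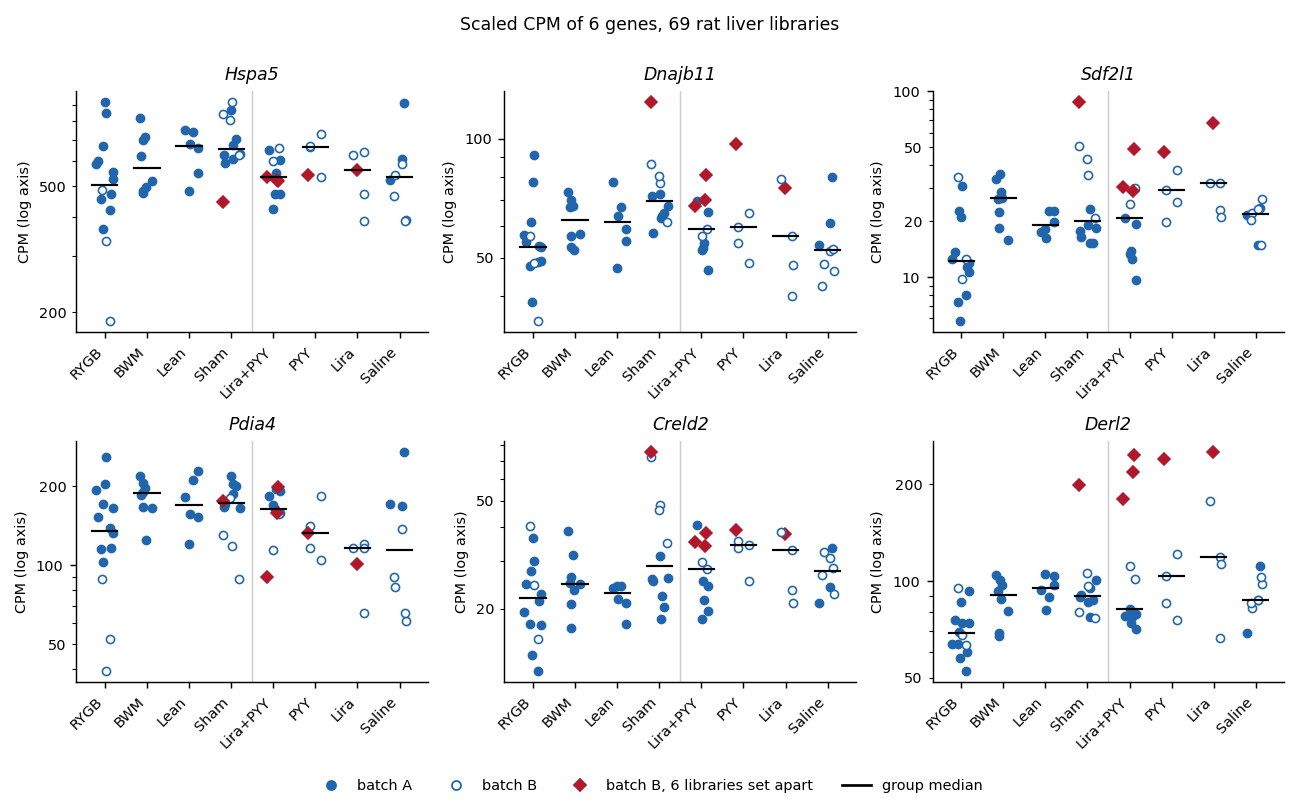
Scaled CPM (log axis) of Hspa5, Dnajb11, Sdf2l1, Pdia4, Creld2 and Derl2 in all 69 libraries by group, with filled points for batch A, open points for batch B, red diamonds for the 6 libraries that lay apart and bars for group medians. Most RYGB points of Sdf2l1 lie below the sham points of the same batch (median 12.2 CPM, against 19.95 in sham), while the ranges of Hspa5 overlap between RYGB (187.4 to 918.3 CPM) and sham (444.3 to 923.3 CPM).

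The fold change of RYGB over sham was larger in size in batch B than in batch A for most of the genes. Within batch B alone, with 3 RYGB and 5 sham libraries, 29 of the 32 log2 fold changes were negative with a median of −0.51, and none was called (24 genes of all, 0.15%). Within batch A alone, 20 were negative with a median of −0.054, and 1 was called (5.62% of all genes). Hspa5 had −1.11 ± 0.27 in batch B and −0.21 ± 0.15 in batch A (SE). Hyou1, a nucleotide exchange factor of Hspa5, had −1.02 ± 0.30 in batch B and −0.01 ± 0.16 in batch A, and Pdia4 had −1.19 ± 0.33 and −0.25 ± 0.14. The call in batch A was Derl2 (−0.36 ± 0.10, edgeR adjusted p = 0.0202), which had −0.56 ± 0.42 in batch B.

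The difference between the batches was itself tested, as an interaction in edgeR. It was negative for 29 of the 32 genes, and 9 of them passed an unadjusted p under 0.05, against 6.96% of all genes. None passed after adjustment over all genes, nor did any other gene (0% called). The lowest unadjusted p of the 32 was 0.0021, for Hyou1. Without the 6 libraries the difference was negative for 22 of the 32, and 7 passed an unadjusted p under 0.05, against 12% of all genes. None of the 32 was then called, and 0.179% of all genes were. Hspa5 differed by −1.02 without the 6 libraries and by −0.91 with them, Canx by 0.06 and −1.25, and Edem1 by −0.10 and −1.67. The 3 batch B RYGB libraries were also among the shallow ones, at 9110860 to 13941960 counts, and the part of this in the result was not tested.

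**Figure D2:**
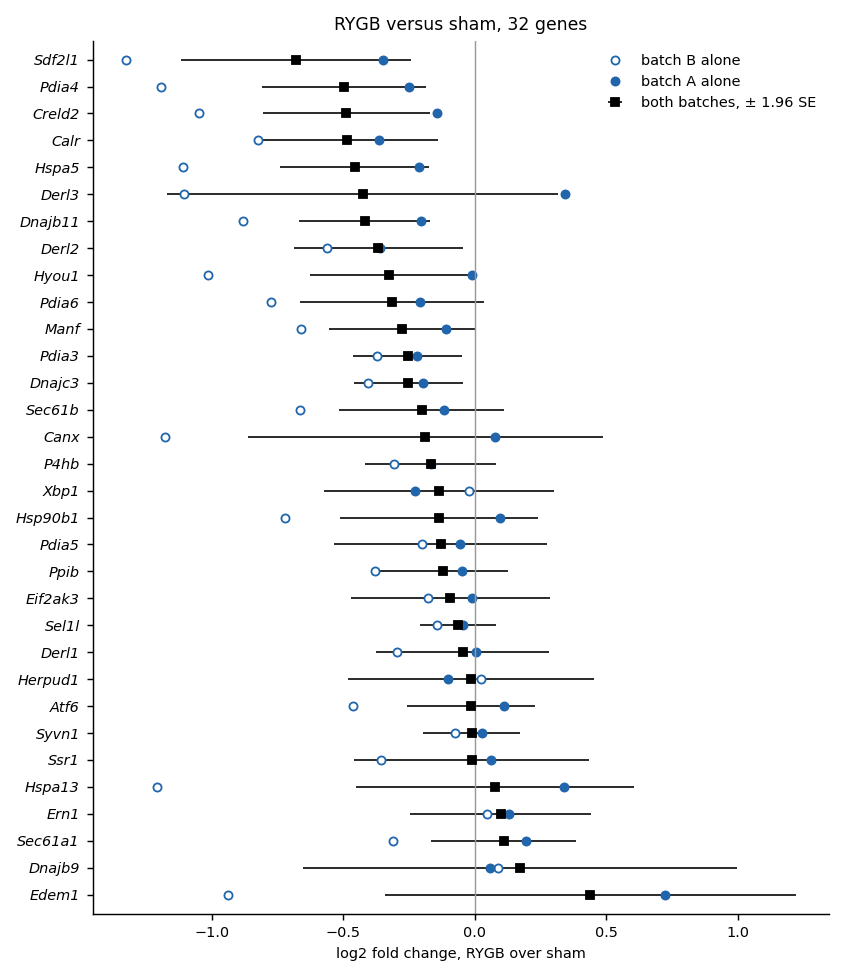
Log2 fold change of RYGB over sham for the 32 genes, from edgeR, sorted by the value of both batches (black squares, bars for 95% intervals), with open points for batch B alone and filled points for batch A alone. Most open points lie left of the filled ones, as for Hspa5 at −1.11 in batch B and −0.21 in batch A.

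In the batch term itself, batch B minus batch A, 60.6% of all genes were called, and 19 of the 32 were, 8 higher and 11 lower in batch B. Hspa13 differed most, at −3.17 ± 0.24. Atf6 (−0.87 ± 0.10), Xbp1 (−0.79 ± 0.19) and Pdia4 (−0.76 ± 0.13) were lower in batch B, while Sec61b (0.88 ± 0.13), Sdf2l1 (0.85 ± 0.18), Canx (0.78 ± 0.28) and Creld2 (0.56 ± 0.13) were higher. Levels of RYGB, sham, liraglutide+PYY3-36 and saline pool both batches unless a batch is named.

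Creld2 was high in the sham libraries of batch B. Creld2 averaged 26.8 ± 12.6 CPM (SD, n = 3) in RYGB livers of batch B, against 55.4 ± 17.6 CPM (SD, n = 5) in sham livers. The other groups of that batch averaged 33.0 CPM in liraglutide+PYY3-36, 33.5 in PYY3-36, 30.7 in liraglutide and 28.2 in saline. In batch A Creld2 averaged 22.1 ± 7.3 CPM (SD, n = 11) in RYGB livers, against 24.2 ± 4.3 CPM (SD, n = 7) in sham livers, so the gap was seen in batch B. The median of RYGB was the lowest of the 6 groups of batch B for 20 of the 32 genes (62.5%), as for 27.5% of all genes, and that of sham the highest for 11 (34.4%), as for 11.3% of all genes. In batch A, RYGB was lowest of 6 groups for 9 of the 32 (28.1%), as for 17.5% of all genes, and sham highest for 8 (25%), as for 13.5%.

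Sham was then set against saline, which the drug comparisons use as their control. edgeR called none of the 32 and no gene at all (0% of all genes), and 7 of the 32 passed an unadjusted p under 0.05, all higher in sham, against 2.58% of all genes. DESeq2 with batch and limma-voom also called none of the 32. The log2 fold change was positive for 29 of the 32, with a median of 0.28, and the 2 lowest unadjusted p-values were those of Dnajb11 (0.45 ± 0.15, edgeR unadjusted p = 0.00321) and Hyou1 (0.46 ± 0.17). Within batch B, 29 were positive and the median was 0.42. Within batch A, 18 were positive and the median was 0.0087, and without the 6 libraries the median over both batches was 0.08.

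Of the other groups set against sham, BWM had none of the 32 called, and none passed an unadjusted p under 0.05 either (0.042% of all genes called, 3.18% at an unadjusted p under 0.05). Lean against sham also called none in edgeR, with 3 at an unadjusted p under 0.05, all lower in Lean (0.612% of all genes called, 6.07% unadjusted). These were Hyou1 (−0.41 ± 0.20), Creld2 (−0.43 ± 0.21) and the ligase partner Sel1l (−0.20 ± 0.10). DESeq2 with batch and limma-voom called none in either comparison. Log2 fold changes of Hspa5 were −0.30 ± 0.17 for BWM and −0.21 ± 0.19 for Lean against sham, beside −0.46 ± 0.14 for RYGB. The 3 comparisons share the sham libraries, but BWM and Lean were in batch A alone, while RYGB was in both batches. Fitted in batch A alone, RYGB had −0.21 for Hspa5 against sham. The median over the 32 in that fit was −0.054 for RYGB, −0.028 for BWM and −0.057 for Lean.

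RYGB was also compared with BWM, whose libraries were all in batch A, and here edgeR called 1 gene of the 32 (1.27% of all genes called). Sdf2l1 had 5.79, 7.33, 8.05, 10.6, 11.3, 11.8, 12.5, 13.7, 21.0, 22.6 and 30.9 CPM in the 11 RYGB livers of batch A. It had 15.8, 18.5, 22.5, 26.3, 26.6, 28.8, 33.6 and 35.7 CPM in the 8 BWM livers. In that batch 8 of 11 RYGB libraries lay below the lowest BWM library, and none lay above the highest. The log2 fold change in the model of all libraries was −0.96 ± 0.24 (SE, edgeR adjusted p = 0.0207), so Sdf2l1 fell in RYGB relative to BWM. DESeq2 with batch also called it (−0.78, adjusted p = 0.0104) and called no other of the 32 (1.75% of all genes called), and limma-voom called 5, all lower (5% of all genes). The call was lost without BWM replicate 1, without BWM replicate 3, without a batch term, and where only the compared groups were fitted.

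Dnajc3 (−0.31 ± 0.12), the disulfide isomerase Pdia6 (−0.44 ± 0.20) and Derl2 (−0.39 ± 0.18) passed an unadjusted p under 0.05 in RYGB against BWM, against 7.91% of all genes. Fitted in batch A alone, Derl2 was called as well (−0.33 ± 0.09, adjusted p = 0.043 in edgeR), as were 3.54% of all genes. Hspa5 differed by −0.15 ± 0.16, with a 95% interval of −0.46 to 0.16. BWM livers had Hspa5 at 476.2, 569.3 and 817.1 CPM (lowest, median, highest), inside the RYGB range.

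Against Lean, edgeR called none of the 32 in RYGB (3.88% of all genes called), and Sdf2l1 (−0.55 ± 0.26) and Derl2 (−0.51 ± 0.20) passed an unadjusted p under 0.05, as did 13.2% of all genes. DESeq2 with batch called none of the 32 (4.08% of all genes called) and limma-voom 4, all lower (8.98% of all genes). In batch A alone edgeR called 10.3% of all genes and 2 of the 32, Derl2 (−0.44 ± 0.10, adjusted p = 0.00367) and Edem1 (1.06 ± 0.32, adjusted p = 0.028). Derl2 in batch A had 52.4, 69.6 and 93.2 CPM in RYGB livers, against 81.2, 95.4 and 105.5 CPM in Lean livers, and 9 of 11 RYGB libraries lay below the lowest Lean library. Edem1 had 154.3, 321.5 and 1154 CPM in RYGB livers of batch A, against 100.1, 199.7 and 253.3 CPM in Lean livers, so the 2 genes of the degradation group moved in opposite directions there.

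Blood markers leaned lower than in sham in both RYGB and BWM. In RYGB all 7 of the blood genes had a negative log2 fold change against sham, none of them called, with a median of −0.74. Their summed level was 35.3 to 891.8 CPM in RYGB livers against 96.3 to 1115 CPM in sham livers. In BWM against sham all 7 were negative too, none of them called, with a median of −0.68. In RYGB against BWM the median was −0.08 and 2 were positive. In RYGB against sham all 11 Kupffer cell markers had a positive log2 fold change, 1 of them called (Vsig4). Their summed level was 260.9 to 879.7 CPM in RYGB livers against 226.3 to 617.4 CPM in sham livers. The part of either cell type in the values of the 32 genes was not tested.

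The 6 libraries of batch B that lay apart had much higher scaled CPM of some ER genes. Since they were picked on the first principal component of all genes, these values are a description. The factors that scale library size (TMM) were 0.62 to 0.85 in the 6 libraries, against 0.81 to 1.24 in the other 22. The part of this scaling in the values was not tested. In 7 of the 32 genes (21.9%) the 6 libraries lay above all 22 others of batch B, while 5.64% of all tested genes did so and 6.1% lay below. Canx had 1137 to 2561 CPM in the 6 libraries against 162 to 950 CPM in the 22 others, with a ratio of medians of 7.10. Edem1 had 282 to 769 CPM against 41.4 to 205 CPM, with a ratio of 6.56. The other 5 were the translocon genes Ssr1 (ratio 3.84) and Sec61b (2.197), the export channel genes Derl1 (2.60) and Derl2 (2.39), and Hsp90b1 (2.49).

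Hspa5 did not share this. It had 444 to 562 CPM in the 6 libraries against 187 to 923 CPM in the others, with a ratio of medians of 0.89. Dnajb9 ran 22.1 to 307.7 CPM against 5.69 to 60.8 CPM (ratio 7.20), and Herpud1 had a ratio of 3.30, both with overlap. Ern1 was lower by median, at 7.17 to 14.6 CPM against 10.3 to 39.4 CPM (ratio 0.413). The summed stellate cell and fibroblast markers were 236.7 to 707.5 CPM in the 6 libraries against 63.9 to 279.9 CPM in the others, hepatocyte markers 93340 to 458800 against 72370 to 296300, and blood markers 341.6 to 1795 against 138.6 to 1767 CPM. Their part in these values was not tested.

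**Figure D3:**
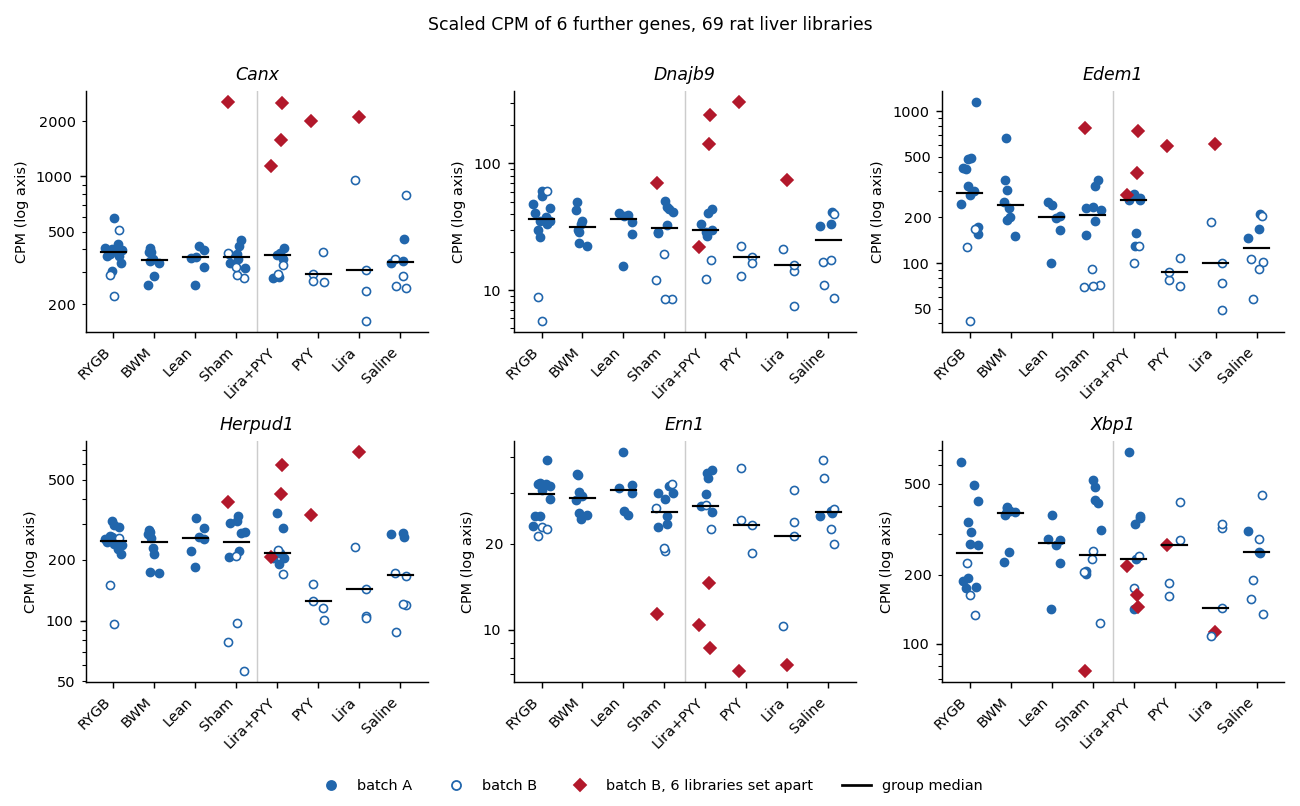
Scaled CPM (log axis) of Canx, Dnajb9, Edem1, Herpud1, Ern1 and Xbp1 in all 69 libraries by group, with filled points for batch A, open points for batch B, red diamonds for the 6 libraries that lay apart and bars for group medians. The 6 diamonds of Canx (1137 to 2561 CPM) lie above the other 22 libraries of batch B (162 to 950 CPM), and those of Ern1 lie low (7.17 to 14.6 CPM).

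Liraglutide+PYY3-36 was compared with saline, the vehicle control. edgeR called none of the 32 (0.006% of all genes called), and 9 passed an unadjusted p under 0.05, all higher in treated rats, against 10.9% of all genes. Neither DESeq2 with batch nor limma-voom called any of the 32. The 9 were Dnajb9 (1.25 ± 0.51), Edem1 (1.02 ± 0.46), Canx (0.81 ± 0.40), Herpud1 (0.63 ± 0.28), Ssr1 (0.57 ± 0.27), Derl1 (0.45 ± 0.20), Sec61b (0.45 ± 0.19), Derl2 (0.40 ± 0.19) and Sec61a1 (0.34 ± 0.16), each with an edgeR adjusted p of 0.454. The median over the 32 was 0.16 and 25 were positive. All of the 7 blood markers were positive too, with a median of 0.67, and the part of this was not tested.

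These values rested on the 6 libraries, of which 3 were of this group. Dnajb9 had 40.6, 29.7, 26.6, 33.1, 43.6 and 28.6 CPM in the liraglutide+PYY3-36 livers of batch A, against 32.2 to 41.7 CPM in the 3 saline livers of that batch. In batch B the 5 treated livers had 12.2, 243.5, 22.1, 17.3 and 143.2 CPM, against 8.70 to 40.1 CPM in the 5 saline livers, and only replicates 8 and 11 stood above saline. Without the 6 libraries the median over the 32 was 0.00017, 16 were negative and none passed an unadjusted p under 0.05. The log2 fold change of Dnajb9 was then −0.22, that of Canx −0.25 and that of Ssr1 −0.02.

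Within batch B alone 26 of the 32 were positive with a median of 0.51, and within batch A alone 24 were negative with a median of −0.14. As a test of the difference between batches, 19 of the 32 passed an unadjusted p under 0.05 in edgeR, against 19.8% of all genes, and none was called after adjustment (0% of all genes called). Without the 6 libraries 5 of the 32 passed, against 8.59% of all genes, and again none was called. Hspa5 differed little from saline under liraglutide+PYY3-36, at −0.03 ± 0.17, with a 95% interval of −0.36 to 0.29. It had 422.2, 533.1 and 657.8 CPM in treated livers, against 387.1, 532.8 and 917.0 CPM in saline livers.

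PYY3-36 alone and liraglutide alone were sequenced in batch B only, and share the saline libraries. For PYY3-36, edgeR called none of the 32 (0% of all genes called), and 1 passed an unadjusted p under 0.05, against 4.95% of all genes. That gene was Dnajb9 (1.68 ± 0.62, unadjusted p = 0.00879), with 18.4, 12.9, 16.4, 22.3 and 307.7 CPM in the 5 PYY3-36 livers. A single library, replicate 5, carried it, and without that library the log2 fold change was −0.43. Canx likewise had 387, 292, 264, 270 and 2016 CPM in PYY3-36 livers, against a range of 246.1 to 790.0 CPM in all saline livers. For PYY3-36 over saline, 30 of the 32 log2 fold changes were positive with a median of 0.27, against 0.036 for all genes. Without the 6 libraries the median was 0.09, and 7 were negative.

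For liraglutide, edgeR called none of the 32 (0.006% of all genes called), and 4 passed an unadjusted p under 0.05, against 6.22% of all genes. These were Derl2 (0.50 ± 0.24), Ppib (0.47 ± 0.18), Sec61a1 (0.43 ± 0.20) and P4hb (0.38 ± 0.19). Sdf2l1 had 32.3, 22.9, 21.0, 67.5 and 31.9 CPM in the 5 liraglutide livers, against 14.8 to 26.5 CPM in the 5 saline livers of batch B, and the groups overlapped. The 67.5 CPM was that of replicate 4, which is among the 6 libraries that lay apart. Over the 32 genes the median log2 fold change was 0.12 with all libraries and 0.066 without the 6. Of the 32, 5 changed sign without them. DESeq2 with batch and limma-voom called none of the 32 in either of these comparisons.

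**Figure D4:**
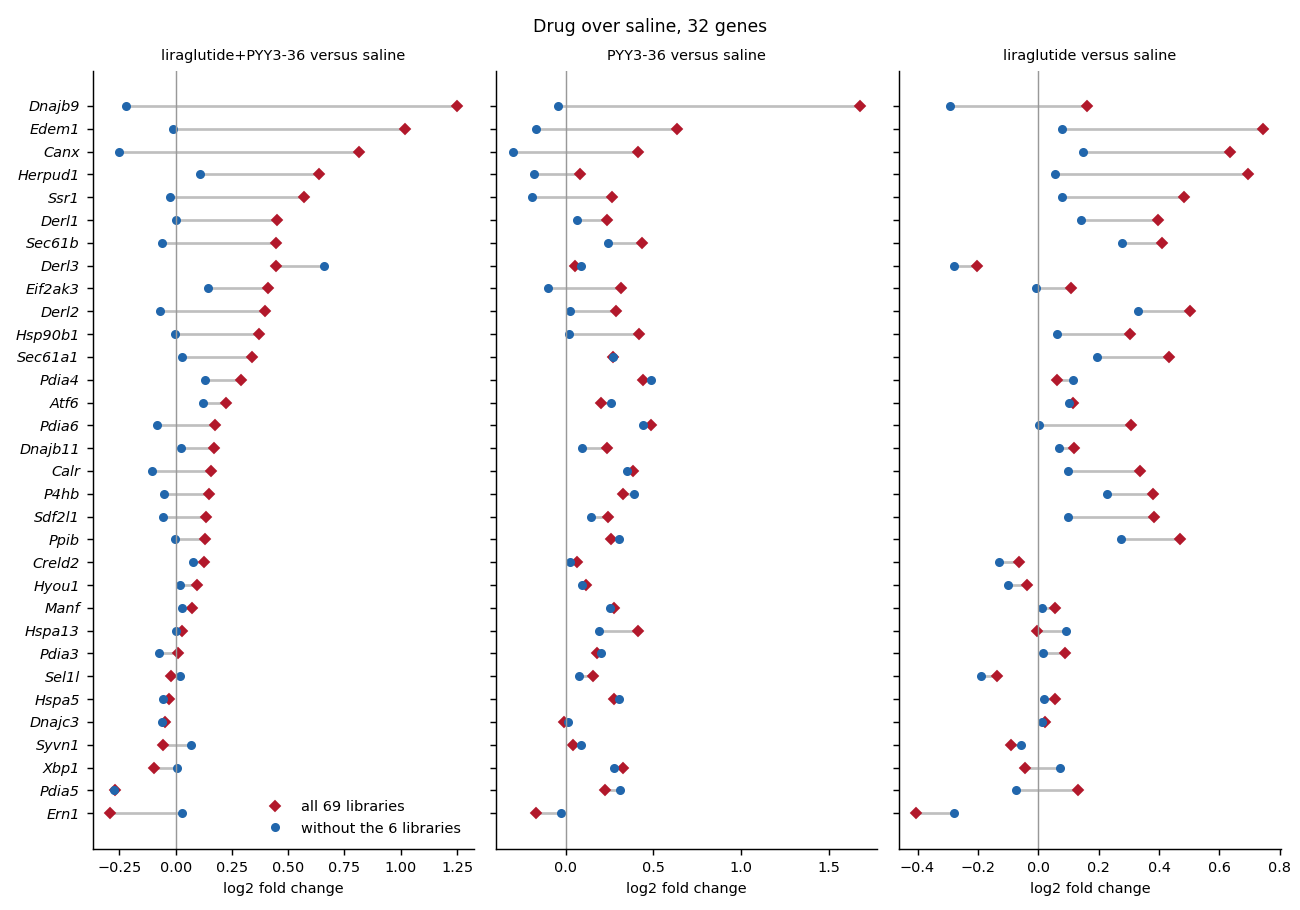
Log2 fold changes of the 32 genes over saline for liraglutide+PYY3-36, PYY3-36 and liraglutide, each panel with its own scale, with all 69 libraries (diamonds) and without the 6 that lay apart (circles), joined by a line. For liraglutide+PYY3-36 the value of Dnajb9 is 1.25 with all libraries and −0.22 without the 6.

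The effect of RYGB against sham was set against that of liraglutide+PYY3-36 against saline as an interaction in edgeR. None of the 32 was called (0.036% of all genes called). An unadjusted p under 0.05 was passed by 7, all negative, against 12.3% of all genes. A negative value means that RYGB over sham lay below liraglutide+PYY3-36 over saline, and not that the level was lower in RYGB. Over the 32 genes the median was −0.15 for RYGB over sham and 0.16 for liraglutide+PYY3-36 over saline. The difference between the controls enters as well, with a median of 0.28 for sham over saline. DESeq2 with batch called none of the 32. The 7 were Pdia4 (−0.79 ± 0.24), Dnajb11 (−0.59 ± 0.19), Derl2 (−0.76 ± 0.25), Sec61b (−0.65 ± 0.25), Creld2 (−0.62 ± 0.24), Sdf2l1 (−0.82 ± 0.34) and Calr (−0.64 ± 0.27). The median difference of effects over the 32 was −0.49, and without the 6 libraries it was −0.13. Within batch B alone it was −1.24, with 28 of the 32 negative, and within batch A alone it was 0.09, with 8 negative.

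Over all 8 groups, mean Hspa5 levels ran from 530.3 ± 193.2 CPM in RYGB (SD, n = 14) to 695.8 ± 139.4 CPM in sham (SD, n = 12). In between, in rising order, came liraglutide (537.7 ± 107.9), liraglutide+PYY3-36 (546.0 ± 75.9), saline (552.5 ± 168.4), BWM (602.9 ± 129.1), PYY3-36 (627.5 ± 86.2) and Lean (643.5 ± 107.2). Each step between neighbours was smaller than the SD of either group. RYGB had the lowest of the 8 mean levels also for Calr, Pdia3, Dnajc3, Manf, Ppib, Derl2, Sec61b and Sdf2l1, and the highest for Atf6, Edem1, Hspa13 and Sec61a1. Sham had the highest for Creld2, Dnajb11, Hyou1 and Derl3. These orders mix the batches, since BWM and Lean were in batch A and PYY3-36 and liraglutide in batch B.

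The ER genes were also followed from library to library. For each gene, the residual of log2(CPM + 0.5) from the mean of its group and batch was correlated with that of Hspa5, within each batch, since the 6 libraries lay apart in one of them. In batch A (n = 41) the median Pearson correlation over the other 31 genes was 0.64, and 19 of 31 had a correlation over 0.5, as did 3.62% of all genes. With permutation p-values adjusted over all 16675 genes, 18 of 31 were called, all positive, against 7.28% of all genes. Without the 2 libraries farthest from the median of Hspa5 the median correlation was 0.58 and 18 were over 0.5. The points share depth, library preparation and liver composition, and the part of these was not tested.

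Dnajb11 followed Hspa5 most closely of all genes (Pearson 0.91, Spearman 0.93 in batch A, permutation adjusted p = 0.00187), then Manf (0.88 and 0.88). The 10 genes most like Hspa5 were Dnajb11, Manf, Tmed9, Spcs2, Hyou1, Ostc, Ssr2, Yipf5, Plaa and Calr, of which 4 belong to the 32. Pdia3 (0.83), Pdia4 (0.82), Creld2 (0.82), Dnajb9 (0.74) and Sdf2l1 (0.73) also varied with Hspa5. Not every gene did. Xbp1 had 0.23, Eif2ak3 0.27, Pdia5 0.16, Herpud1 0.14 and Edem1 −0.01, and Ern1 had −0.34, none of them past the adjusted threshold.

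In batch B (n = 28) the median was 0.16 and 4 of 31 were over 0.5, against 9.55% of all genes. The adjusted permutation test called 5 of 31 there, against 11.7% of all genes. Of these 4 were positive, and Eif2ak3 was negative (−0.66, permutation adjusted p = 0.0215). Without the 6 libraries (n = 22) the median was 0.47 and 15 of 31 were over 0.5, against 10.5% of all genes. No gene at all then passed the adjusted permutation test. Manf (0.93), Creld2 (0.85) and Dnajb11 (0.78) were again high there, Dnajb9 was −0.35 and Eif2ak3 −0.71. Without a further 2 libraries, those farthest from the median of Hspa5, the median was 0.44 and Dnajb9 had 0.19.

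**Figure D5:**
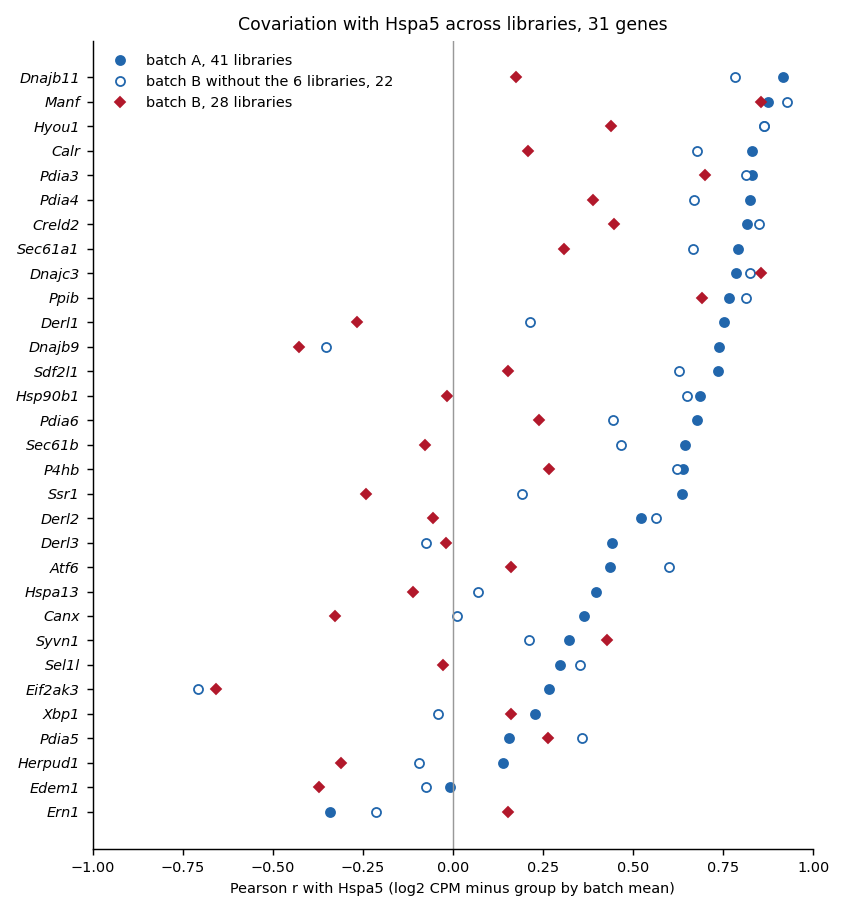
Pearson correlation of each of the 31 other genes with Hspa5 across libraries, after group and batch means were removed, in batch A (filled, n = 41), in batch B without the 6 libraries (open, n = 22) and in batch B (diamonds, n = 28). Dnajb11 and Manf lie highest in batch A, at 0.91 and 0.88, and Ern1 lowest, at −0.34.

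Promoter elements were set beside these values as a description. The 11 genes with an ERSE, ERSE-II or UPRE in the window had a median log2 fold change of −0.33 in RYGB versus sham, and the other 14 with an entry had −0.11. Both Hspa5 and Dnajb11 belong to the 11, and so do Xbp1 and Herpud1, which differed little from sham. Sdf2l1 holds none of the elements.

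Beyond the 32, 102 other ER genes in 6 lists were tested (translocation and signal peptidase, N-glycosylation, folding enzymes, ER-associated degradation, the PERK and ATF4 arm, and the ATF6 and CREB3 family). In RYGB versus sham 2 rose and 1 fell, 2.94% of the 102, near the 3.12% of all genes called. Asns, the asparagine synthetase of the ATF4 arm, rose by 1.69 ± 0.39 on the log2 scale (edgeR adjusted p = 0.00465) and Creb3l2, an ER-bound transcription factor, by 0.75 ± 0.22 (adjusted p = 0.0364), while Chac1, a glutathione-degrading ATF4 target, fell by 2.61 ± 0.58 (adjusted p = 0.00349). Atf4 itself had −0.02 ± 0.16 and Ddit3 (CHOP) 0.12 ± 0.25. In RYGB versus BWM 1 rose and 1 fell (Asns and Chac1), in RYGB versus Lean 2 rose and 1 fell, and none was called in the other comparisons of the 8 groups.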

How the data were processed

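Total liver RNA was enriched for poly(A) mRNA and sequenced from stranded libraries. The deposited table holds estimated counts of each gene. Per the labels and methods, the authors demultiplexed reads in bcl2fastq (2.20.0.422), trimmed them in cutadapt (2.5), mapped them to Rnor_6.0 by STAR (2.7.2b) and assigned them to exons of the reverse strand by featureCounts (1.6.4). Reads with several matches or overlapping genes were divided between them, so 15.9% of values were not whole, and the authors did not normalize the table. Dividing reads can move counts between overlapping or similar genes.

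Counts were rounded and fitted in R 4.3.3 with edgeR 4.0.16 (filterByExpr, TMM, robust quasi-likelihood, group and batch as factors, all 69 libraries in 1 model). Calls were made at an adjusted p under 0.05 (Benjamini-Hochberg over all 16676 tested genes). Scaled CPM are counts divided by the TMM-scaled size of the library. SE was taken from the fold change and its F statistic. DESeq2 1.42.0, limma 3.58.1, other filters and scalings, no batch term, fits within each batch, a replicate block and leaving out each library were alternatives, and leaving out the 6 libraries was chosen after seeing the data. The edgeR model and the correlation test were tested on simulated data. Correlations used 100000 permutations within group and batch, adjusted over all genes rather than over the 31 alone.

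The members and lists were chosen with earlier results of these data known. Values per library are given for the members called and for a set of named chaperones and sensors, and other members by range or fold change. Calr, Pdia4, Creld2, Dnajb11, Derl2, Canx and Edem1 were added to these after their values were seen. Promoter sequences are from RefSeq (GRCr8), matched by gene identifier for 25 of 32 genes, and coordinates of the 2 builds were not mixed. Where a gene had several promoters, as Hyou1 with 2, the one with the most elements was read.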

Additional observations from a re-analysis of the deposited data

Results flagged for a closer look

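In groups of 4 to 10 libraries, the highest or lowest library was checked against the rest for 10 genes (50 tests of a group). Of these tests 9 were past the limit. Among independent, normally distributed values about 1 in 20 groups would pass it. The CPM were not logged and the 10 genes share libraries, so that rate need not hold here. Of the 9, 7 were in the libraries that lay apart. PYY3-36 replicate 5 stood above the other 4 libraries of its group for Dnajb9 (307.7 CPM, next 22.3), Hsp90b1 (1454 CPM, next 560.6), Herpud1 (334.7 CPM, next 152.2) and Eif2ak3 (37.7 CPM, next 15.3). Liraglutide replicate 4 stood above its group for Herpud1 (686.8 CPM, next 231.2), Dnajb9 (73.6 CPM, next 21.1) and Sdf2l1 (67.5 CPM, next 32.3). The other 2 were outside these libraries, Hspa5 in saline replicate 4 (917 CPM, next 607.1) and Atf6 in liraglutide replicate 2, which was low (19.95 CPM, next 36.2).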

How the results depend on the processing

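In RYGB versus sham edgeR called none of the 32 genes. DESeq2 with batch called 3 (3.28% of all genes), DESeq2 without batch 3 (3.56%) and limma-voom 9 (9.5%). In edgeR, 3 were called without a batch term (3.27%), 1 in batch A alone (5.62%) and 3 without the 6 libraries (5.51%). Leaving out each library gave 0 to 5, with no share over all genes computed. In RYGB versus BWM, where edgeR called 1, DESeq2 without batch called 0 (1.09% of all genes) and limma-voom 5 (5%). The count was 0 without a batch term (0.911%), 0 with the compared groups alone (1.67%) and 2 in batch A alone (3.54%). It was 0 to 1 with each library left out, again with no share over all genes computed. In RYGB versus Lean, where edgeR called 0, limma-voom called 4 (8.98% of all genes). The count was 1 with the compared groups alone (5.06%), 2 in batch A alone (10.3%) and 2 without the 6 libraries (6.34%). With the replicate block the counts were 0 in RYGB versus sham (2.21% of all genes) and 1 in RYGB versus BWM (0.989%). They were 0 in every other comparison, so no call changed. The labels do not say whether replicate numbers pair the rats, and correlations between libraries cannot decide it. Same-numbered libraries of 1 batch correlated over 0.1 in 2 of 8 pairs in RYGB versus sham (−0.383 to 0.191). They did so in 3 of 6 in Lean versus sham, 4 of 6 in liraglutide+PYY3-36 versus saline and 4 of 8 in RYGB versus BWM. In no comparison did all pairs pass 0.1. All pairs were positive in Lean versus sham, while every other comparison held a negative one. Genes with a correlation to Hspa5 over 0.5 numbered 9 over all libraries (2.55% of all genes) and 19 in batch A (3.62%). The count was 4 in batch B (9.55%), 16 without the 6 libraries (2.9%) and 15 in batch B without them (10.5%). Under liraglutide+PYY3-36 the fold change over saline changed sign for 25 of the 32 in batch A alone and for 17 without the 6 libraries, and 12 were negative by limma-voom, against 7 in edgeR. Of the 9 genes past an unadjusted p under 0.05, those were Dnajb9 (−0.10), Canx (−0.15), Herpud1 (−0.16), Derl1 (−0.055), Derl2 (−0.23), Sec61a1 (−0.10), Sec61b (−0.21) and Ssr1 (−0.082) in batch A alone, and without the 6 libraries Dnajb9 (−0.22), Canx (−0.25), Derl2 (−0.068), Edem1 (−0.013), Sec61b (−0.062) and Ssr1 (−0.024). By limma-voom Derl2 (−0.027) and Sec61b (−0.025) were negative. Under PYY3-36, 7 of the 32 changed sign without the 6 libraries, among them Dnajb9 (−0.041), which also did so without PYY replicate 5 (−0.43, with a range of −0.43 to 1.95 over single libraries left out). The cause of these changes was not tested.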
